A study of Mus musculus with 6 samples.

Results

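ALDH+ breast cancer stem cells (BCSCs, P2) were compared with bulk cancer cells (P0) sorted from the same 2 mammary tumors. The comparison covered every gene with a symbol and at least 1 RPKM (reads per kilobase of gene, scaled to a common library size) in at least 2 of the 4 libraries, which gave 11757 genes of the 14889 with a symbol. The ALDH+ group held 1 library from tumor 1 and 1 from tumor 2, and the bulk group held the remaining, non-CSC cells of the same 2 sorts. Another sorted population, CD29hi CD61+ BCSCs (P1), supplied 1 library per tumor and was used where stated. All 6 libraries came from spontaneous breast tumors of FVB/N mice (FVBN in the labels) that carried the polyoma virus middle T antigen (PyMT) under the MMTV promoter, which is active in mammary epithelium. There was therefore no group without the oncogene. The labels give no treatment or age, nor the number of mice behind the 2 tumors, so the error below rests on 2 tumors only. That error joins each gene's own spread between the tumors with a spread that the fit (limma) shares over genes.

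Aldehyde dehydrogenases oxidize aldehydes to carboxylic acids, and several members of the Aldh1a class turn retinaldehyde into retinoic acid, a ligand of nuclear receptors. In the Aldefluor assay, a fluorescent product of these enzymes is trapped in the cell, so the gate takes cells by enzyme activity and not by a surface protein. Cells with high activity include luminal progenitors in the normal mammary gland and tumor-initiating cells in many breast cancers. The bulk cells stand for what was left after both BCSC gates, so the comparison asks which mRNAs go with the ALDH+ gate within a tumor.

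Values are given for tumor 1 and then tumor 2, and differences are on the log2(RPKM + 1) scale, ALDH+ minus bulk, with the standard error (SE) of the fit. At an adjusted p under 0.05 (limma, tumor as a block, Benjamini-Hochberg over all tested genes), 3 genes passed, which is 0.0255% of those tested. *Bgn* rose, and the microRNA genes *Mirlet7d* and *Mir19b-1*, which entered the test through the bulk libraries alone and could only be lower, fell. Leaving out 1 library at a time moved this count between 0, without the bulk library of tumor 1, and 79, without the ALDH+ library of tumor 2, and it was 7 without the ALDH+ library of tumor 1. Without the bulk library of tumor 2 it was 4, with none of the 3 genes among them. Each fit with 1 library left out, here and below, had 1 library in a group and no tumor block, so the loss of the pairing counts in it too. Before adjustment, 399 genes of the main fit stood higher and 154 lower at a limma p under 0.05. Because 2 libraries against 2 cannot give an exact two-sided p below 0.333, consistency between the tumors was described by size. A difference of at least 1 in both tumors, termed 2-fold below although adding 1 RPKM understates the change of low genes, was found upward for 213 genes (1.81%) and downward for 76 (0.646%). Any positive difference in both tumors was found for 2996 genes (25.5%) and any negative one for 2767 (23.5%). The median difference over all tested genes was -0.0003. Read totals, recovered from RPKM and gene length, were 23773850 and 19037070 in ALDH+ cells and 36200687 and 19443201 in bulk cells. Tumor 1 had many more tested genes without a single read, namely 1405 in ALDH+ cells and 1022 in bulk cells, against 51 and 20 in tumor 2. The SD of the differences over genes was 1.36 in tumor 1 and 0.613 in tumor 2. Of the 213 genes, 77 had no reads in bulk cells of tumor 1. Of the 76, 51 had none in ALDH+ cells of tumor 1, so many tumor 1 differences rest on an empty library. Of the 213, 57 reached 1 RPKM in no bulk library, and of the 76, 30 in no ALDH+ library. The filter fixed the direction of those genes, so they give no support.

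**Figure D1:**
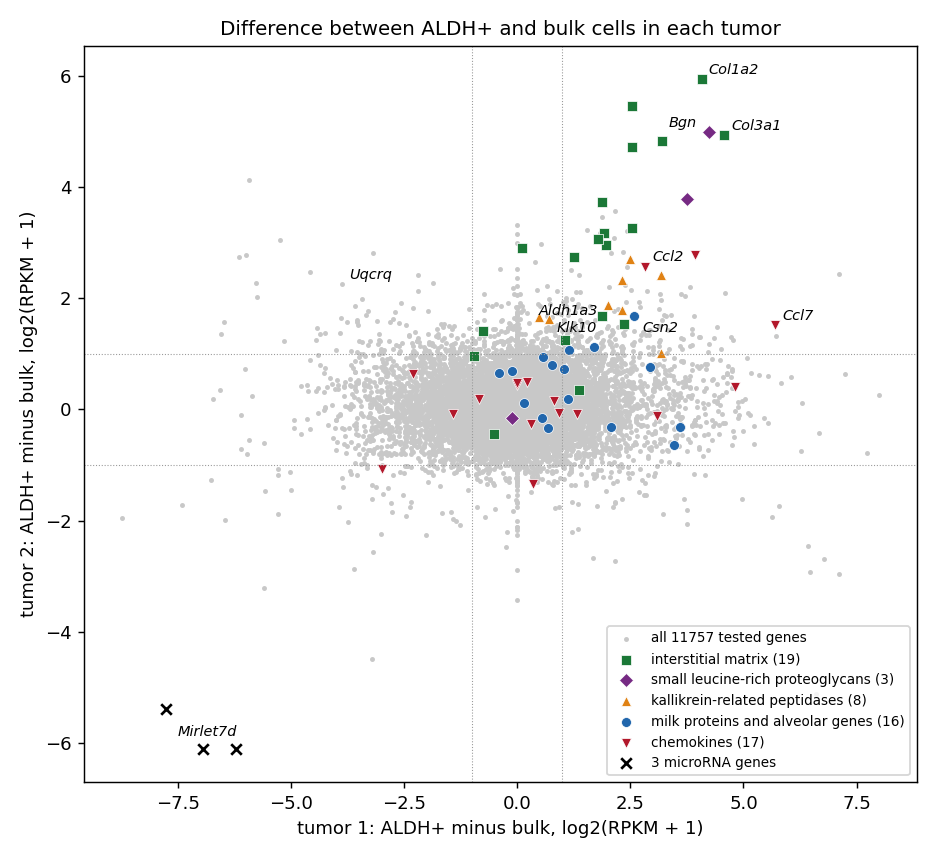
Difference between ALDH+ and bulk cells in tumor 1 (horizontal axis) and tumor 2 (vertical axis), both in log2(RPKM + 1), for 11757 tested genes in grey, with 5 gene groups in color and 3 microRNA genes as crosses. Dotted lines mark differences of 1 and -1. Matrix genes and proteoglycans reach the upper right, *Bgn* at 4.23 and 4.99, while the spread of all genes is wider in tumor 1 (SD 1.36) than in tumor 2 (SD 0.613).

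The aldehyde dehydrogenase that stood out by level and by difference was *Aldh1a3*, which makes retinoic acid from retinaldehyde. It was at 693 and 182 RPKM in ALDH+ cells, against 146 and 51.6 RPKM in bulk cells. Both ALDH+ libraries lay above both bulk libraries, and the ratios were 4.73 in tumor 1 and 3.53 in tumor 2. The difference was 2.02 (SE 0.31, adjusted p = 0.271 with limma), so it did not pass over all genes. It passed at 0.0409 when limma was restricted to genes averaging at least 5 RPKM. Without the block the limma adjusted p was 0.9998, and with limma voom on the recovered reads it was 0.826. Among 13 tested members of the family, *Aldh1a3* was the only one that was 2-fold higher in both tumors and none was 2-fold lower.

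The other Aldh1a genes were near the limit of detection. *Aldh1a1*, *Aldh1a2* and *Aldh1a7* had no reads in ALDH+ cells of tumor 1 and 1.37, 0.997 and 1.33 RPKM in ALDH+ cells of tumor 2, against no reads in bulk cells of tumor 1 and 0.329, 0.273 and 0.973 RPKM in bulk cells of tumor 2. They did not reach the level needed for testing. *Aldh2*, the mitochondrial enzyme that clears acetaldehyde, was at 43.4 and 64.9 RPKM in ALDH+ cells and at 34.5 and 37.7 RPKM in bulk cells. *Aldh3b1*, which acts on lipid aldehydes, was at 4.77 and 1.81 RPKM in ALDH+ cells, against no reads and 1.01 RPKM in bulk cells. *Aldh18a1*, which belongs to proline synthesis, was at 31.5 and 18.7 RPKM in ALDH+ cells and 45.98 and 20.998 RPKM in bulk cells. Summed over all 20 members, the family reached 830.4 and 350.9 RPKM in ALDH+ cells and 290.4 and 178.6 RPKM in bulk cells, and most of each sum in ALDH+ cells was *Aldh1a3*.

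Genes that handle retinoids or respond to retinoic acid did not move as a group, with 1 of 13 tested members 2-fold higher, 5 higher and 3 lower in both tumors, and a median of -0.06. Of all tested genes, 25.5% were higher and 23.5% lower in both tumors. *Rarres2*, a retinoid-responsive gene that encodes the chemoattractant chemerin, was at 11.2 and 7.49 RPKM in ALDH+ cells, against no reads and 1.02 RPKM in bulk cells. Against this, *Tgm2*, a transglutaminase induced by retinoic acid in several cell types, was at 18.9 and 31.2 RPKM in ALDH+ cells and 52.1 and 32.9 RPKM in bulk cells. *Dhrs9*, a retinol dehydrogenase, was at 4.18 and 4.59 RPKM in ALDH+ cells, against 13.1 and 6.79 RPKM in bulk cells. The receptor gene *Rxra* was at 8.10 and 9.61 RPKM in ALDH+ cells and 4.42 and 5.01 RPKM in bulk cells.

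Among milk protein genes, *Csn2*, *Ltf* and *Spp1* were 2-fold higher in ALDH+ cells of both tumors, and none passed the adjusted p. *Csn2*, which encodes beta-casein, was at 823 and 191 RPKM in ALDH+ cells, against 137 and 59.04 RPKM in bulk cells. The difference was 2.13 (SE 0.34, limma adjusted p = 0.272), with ratios of 6.01 and 3.23, and both ALDH+ libraries lay above both bulk libraries. *Csn1s1*, alpha-S1-casein, was at 518 and 117 RPKM in ALDH+ cells and 66.7 and 68.9 RPKM in bulk cells, a difference of 1.85 (SE 0.49, limma adjusted p = 0.934). The ratio of *Csn1s1* was 7.77 in tumor 1 and only 1.70 in tumor 2. *Csn1s2a* was at 55.6 and 6.09 RPKM in ALDH+ cells and 3.67 and 7.88 RPKM in bulk cells, higher in tumor 1 and lower in tumor 2. *Csn3*, kappa-casein, which belongs to another gene lineage, was nearly level at 4193 and 1731 RPKM in ALDH+ cells and 3798 and 1606 RPKM in bulk cells.

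*Ltf*, which encodes the iron-binding protein lactoferrin, was at 1382 and 1063 RPKM in ALDH+ cells and 426 and 486 RPKM in bulk cells, a difference of 1.41 (SE 0.34, limma adjusted p = 0.934). *Spp1*, which encodes the secreted phosphoprotein osteopontin, was among the most abundant mRNAs, at 3752 and 1758 RPKM in ALDH+ cells, against 1702 and 837 RPKM in bulk cells (difference 1.10, SE 0.38, limma adjusted p = 0.934). In both genes each ALDH+ library was above each bulk library. Of 16 tested milk and alveolar genes, 3 were 2-fold higher in both tumors, 9 were higher in both and none was lower in both, with a median of 0.83. The shares of all tested genes were 1.81%, 25.5% and 23.5%. Summed over the 17 listed genes in the table, they gave 11820 and 6262 RPKM in ALDH+ cells and 6874 and 3866 RPKM in bulk cells. *Lalba*, the lactose synthase cofactor, was at 341 and 312 RPKM in ALDH+ cells and 201 and 179 RPKM in bulk cells, and *Stat5a*, the prolactin-activated transcription factor, was at 10.4 and 9.85 RPKM in ALDH+ cells and 4.52 and 5.59 RPKM in bulk cells. *Elf5*, an alveolar transcription factor, was at 75.3 and 95.7 RPKM in ALDH+ cells and 81.8 and 58.8 RPKM in bulk cells, lower in tumor 1 and higher in tumor 2.

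STAT5 dimers bind the palindrome TTCNNNGAA, and the promoters of the casein genes are a textbook case, so those of *Csn1s1* and *Csn2* are shown, with that of *Klk10*, a protease gene described next whose window also held a match. The windows run from 250 bases before to 50 after the RefSeq start (GRCm38.p6), and capitals mark matches of TTCNNNGAA, which reads the same on both strands.
Csn1s1, chr5:87665958-87666257 (+ strand): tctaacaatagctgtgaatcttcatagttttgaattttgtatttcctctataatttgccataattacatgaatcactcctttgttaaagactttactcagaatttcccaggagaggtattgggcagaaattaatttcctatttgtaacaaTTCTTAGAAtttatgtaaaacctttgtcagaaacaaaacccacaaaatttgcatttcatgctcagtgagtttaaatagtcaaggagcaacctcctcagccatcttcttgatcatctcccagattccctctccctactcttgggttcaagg
Csn2, chr5:87699376-87699675 (- strand): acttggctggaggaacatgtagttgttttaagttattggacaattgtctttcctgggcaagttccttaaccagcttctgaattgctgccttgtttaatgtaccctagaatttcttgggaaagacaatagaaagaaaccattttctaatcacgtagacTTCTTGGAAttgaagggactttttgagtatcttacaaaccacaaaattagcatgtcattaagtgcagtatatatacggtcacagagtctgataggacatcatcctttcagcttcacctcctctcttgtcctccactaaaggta
Klk10, chr7:43780804-43781103 (+ strand): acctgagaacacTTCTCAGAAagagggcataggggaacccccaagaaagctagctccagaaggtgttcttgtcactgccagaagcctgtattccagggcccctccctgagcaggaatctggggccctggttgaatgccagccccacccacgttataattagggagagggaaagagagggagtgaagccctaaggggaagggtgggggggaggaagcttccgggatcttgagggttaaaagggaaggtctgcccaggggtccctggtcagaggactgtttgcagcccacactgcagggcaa
The match lay at bases -100 to -92 of *Csn1s1*, at -93 to -85 of *Csn2* and at -238 to -230 of *Klk10*. Of all 32851 RefSeq promoter windows of this length, 2726 (8.30%) held the motif. Windows were found for 12 of the 16 tested milk and alveolar genes, and 4 of their 18 windows held it, those of *Csn1s1*, *Csn1s2a*, *Csn2* and *Prlr*. Among 8 kallikrein genes with 10 windows, *Klk10* alone held it.

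**Figure D2:**
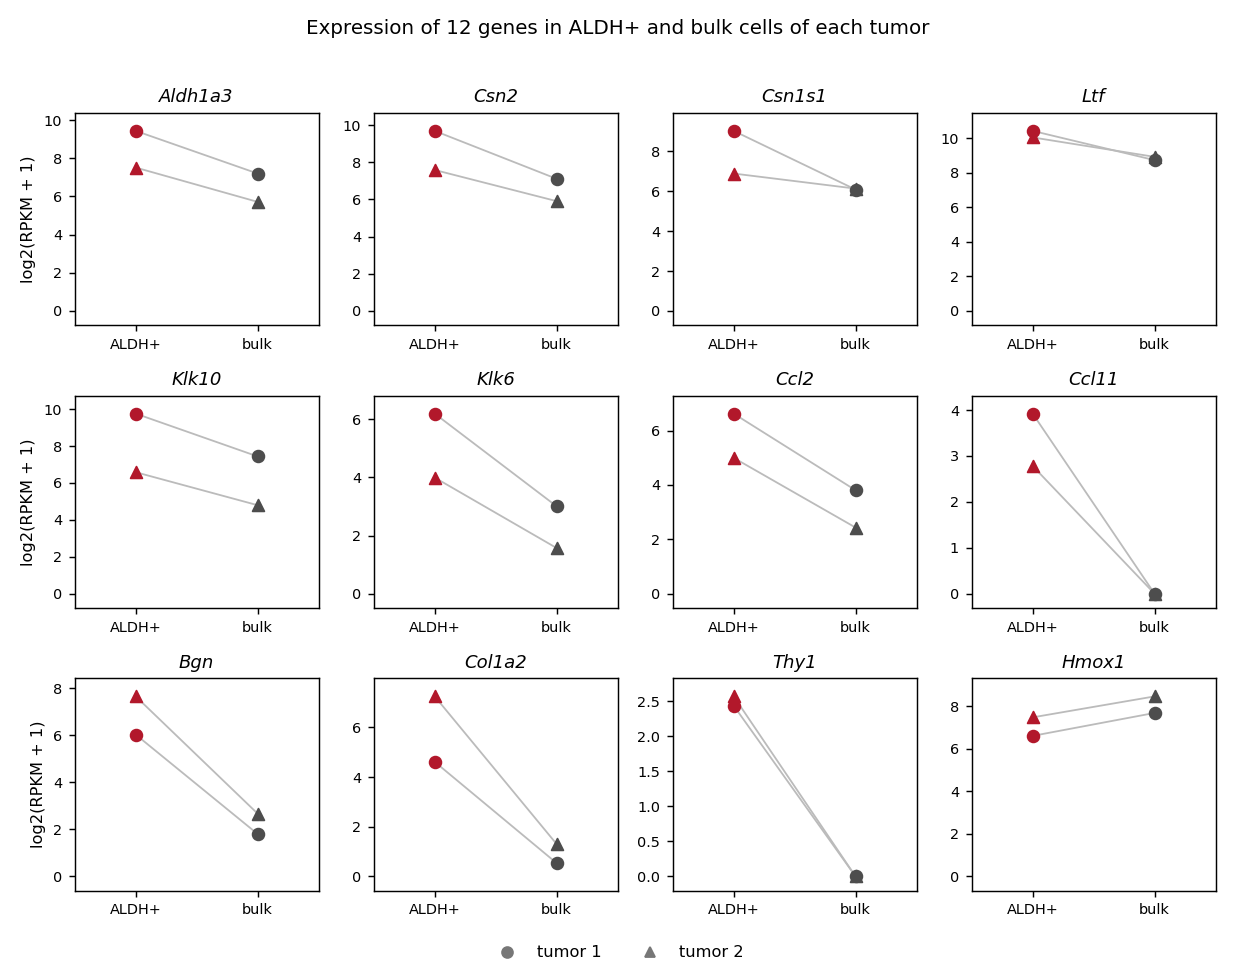
Levels of 12 genes in log2(RPKM + 1), ALDH+ cells left and bulk cells right in each panel, circles for tumor 1 and triangles for tumor 2, with a line joining the cells of a tumor. In 11 genes both tumors are higher in ALDH+ cells, as in *Csn2* at 823 and 191 RPKM against 137 and 59.04 RPKM in bulk cells, and in *Hmox1* both are lower.

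Kallikrein-related peptidases, secreted serine proteases encoded side by side on chromosome 7, also stood higher in ALDH+ cells. This family was picked after its values were seen. All 8 tested members were higher in both tumors and 6 were 2-fold higher, against 25.5% and 1.81% of all tested genes, with a median of 2.07. Of the 8, 2 reached 1 RPKM in ALDH+ libraries alone, so they had to be higher and give no support. *Klk10* had the highest level of the 8, at 864 and 94.9 RPKM in ALDH+ cells, against 172 and 26.8 RPKM in bulk cells. Its difference was 2.05 (SE 0.31, limma adjusted p = 0.271). Because tumor 1 ran higher throughout, bulk cells of tumor 1 lay above ALDH+ cells of tumor 2, and the groups overlapped although the order within each tumor was the same. *Klk6* was at 71.9 and 14.9 RPKM in ALDH+ cells and 7.02 and 1.97 RPKM in bulk cells (difference 2.80, SE 0.53, limma adjusted p = 0.535), with no overlap. *Klk8* was at 66.2 and 8.50 RPKM in ALDH+ cells and 15.7 and 1.59 RPKM in bulk cells. *Klk14*, a trypsin-like member, was at 49.1 and 5.54 RPKM in ALDH+ cells, against 7.85 RPKM and no reads in bulk cells (difference 2.60, SE 0.64, limma adjusted p = 0.934). In tumor 2 this made it at least 45.6-fold higher, taking 3 reads as the limit that an empty library allows. Such limits, here and below, cover counting error only. In tumor 1, 11.95% of tested genes had no reads in ALDH+ cells and 8.69% had none in bulk cells. *Klk11* was at 3.97 and 4.89 RPKM in ALDH+ cells and had no reads and 0.169 RPKM in bulk cells. Members *Klk7*, *Klk9* and *Klk12* ranged from 1.47 to 14.6 RPKM in ALDH+ cells and from no reads to 8.56 RPKM in bulk cells.

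Among 17 tested chemokine genes, *Ccl2*, *Ccl7* and *Ccl11* were 2-fold higher in ALDH+ cells of both tumors and *Ccl3* was 2-fold lower, and none passed the adjusted p. *Ccl2*, a ligand of CCR2 that recruits monocytes, was at 97.6 and 30.9 RPKM in ALDH+ cells, against 12.99 and 4.40 RPKM in bulk cells. The ratios were 7.52 and 7.03, the groups did not overlap, and the difference was 2.69 (SE 0.42, limma adjusted p = 0.272). *Ccl7*, a close relative, was at 50.8 and 8.08 RPKM in ALDH+ cells and had no reads and 2.19 RPKM in bulk cells. It was thus at least 489.7-fold higher in tumor 1 and 3.69-fold higher in tumor 2 (difference 3.60, SE 1.000, limma adjusted p = 0.934). The limit in tumor 1 rests on an empty library and covers counting error only. *Ccl11*, the eosinophil attractant eotaxin, was at 14.1 and 5.87 RPKM in ALDH+ cells, with no reads in either bulk library, hence at least 183-fold and 40.8-fold higher (difference 3.35, SE 0.71, limma adjusted p = 0.755). Of the 17, 6 were higher and 2 lower in both tumors, against 25.5% and 23.5% of all tested genes. *Ccl11* and *Ccl20* reached 1 RPKM in ALDH+ libraries alone, so they had to be higher and give no support. *Ccl3* reached it in bulk libraries alone and had to be lower.

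The neutrophil attractants *Cxcl1*, *Cxcl2* and *Cxcl5*, ligands of CXCR2, split between the tumors. *Cxcl1* was at 247 and 178 RPKM in ALDH+ cells and 130.5 and 187 RPKM in bulk cells. *Cxcl5* was at 177 and 50.1 RPKM in ALDH+ cells, against 139 and 129 RPKM in bulk cells. *Ccl5*, the T cell attractant, was at 171 and 14.7 RPKM in ALDH+ cells and 138 and 17.8 RPKM in bulk cells, higher in tumor 1 and lower in tumor 2. Only *Ccl3*, a chemokine made by macrophages and other leukocytes, was 2-fold lower in both tumors, with no reads in ALDH+ cells, against 6.92 and 1.11 RPKM in bulk cells. That was at least 43.3-fold lower in tumor 1 and at least 5.55-fold lower in tumor 2. Because *Ccl3* reached 1 RPKM in bulk libraries alone, it had to be lower and gives no support. The matching receptors were scarce, and of 8 receptor and decoy genes in the table the 3 tested ones, *Cxcr2*, *Cxcr4* and *Ackr3*, had no common direction in the tumors.

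No cytokine gene was 2-fold higher in both tumors, although *Il6* and *Il33* were so in tumor 1. *Il6* was at 13.6 and 3.19 RPKM in ALDH+ cells, with no reads and 1.37 RPKM in bulk cells. *Csf3*, granulocyte colony-stimulating factor, was abundant at 235 and 273 RPKM in ALDH+ cells, against 139.8 and 153 RPKM in bulk cells. *Il33*, an alarmin cytokine, was at 30.6 and 8.67 RPKM in ALDH+ cells and 1.85 and 5.69 RPKM in bulk cells. Receptors of the IL-6 family ran the other way, with *Osmr* at 31.4 and 49.8 RPKM in ALDH+ cells and 39.3 and 66.5 RPKM in bulk cells and *Il6st* (gp130) at 32.6 and 27.1 RPKM in ALDH+ cells and 46.9 and 38.3 RPKM in bulk cells. Of 16 tested cytokine and receptor genes, 6 were higher and 3 lower in both tumors, against 25.5% and 23.5% of all tested genes. None was 2-fold either way in both.

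*Bgn*, which encodes the small leucine-rich proteoglycan biglycan, was the gene that rose past the adjusted threshold. It was at 64.6 and 201 RPKM in ALDH+ cells, against 2.50 and 5.38 RPKM in bulk cells, from 3668 and 9155 reads in ALDH+ cells and 216 and 250 in bulk cells. The groups were far apart, with ratios of 25.9 and 37.4, and the difference was 4.61 (SE 0.43, limma adjusted p = 0.0348). Without the block the limma adjusted p was 0.193, and with limma voom on the recovered reads it was 0.826, so the call depended on the model while the sign did not. It also did not pass without the bulk library of tumor 1, with a difference of 4.17, or without that of tumor 2, with 5.04. Its relative *Dcn* (decorin), which binds collagen fibrils, was at 12.5 and 21.01 RPKM in ALDH+ cells and had no reads and 0.592 RPKM in bulk cells, at least 315-fold higher in tumor 1 and 35.5-fold in tumor 2 (difference 3.77, SE 0.69, limma adjusted p = 0.535). *Omd* (osteomodulin), the other tested member of this family, did not follow, at 13.7 and 16.3 RPKM in ALDH+ cells and 14.9 and 18.3 RPKM in bulk cells. *Dcn* reached 1 RPKM in ALDH+ libraries alone, so it had to be higher and gives no support. *Lum* (lumican) had reads in ALDH+ cells of tumor 2 only, at 8.83 RPKM.

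Fibrillar collagens and their partners formed the group with the highest median among the lists with at least 5 tested genes, 2.43, and 14 of 19 tested members were 2-fold higher in both tumors, against 1.81% of all tested genes, with none 2-fold lower. Of those 19, 5 reached 1 RPKM in ALDH+ libraries alone, *Col6a1* and *Col6a2* among them. These 5 had to be higher and give no support, and 6 further members were not tested. *Col3a1*, type III collagen, was at 22.8 and 67.8 RPKM in ALDH+ cells, from 3012 and 7183 reads, against 1 and 135 reads in bulk cells (difference 4.75, SE 0.63, limma adjusted p = 0.145). *Col1a2*, a chain of type I collagen, was at 23.4 and 150.4 RPKM in ALDH+ cells and 0.451 and 1.47 RPKM in bulk cells (difference 5.01, SE 0.65, limma adjusted p = 0.145). Its partner chain *Col1a1* was at 10.3 and 162 RPKM in ALDH+ cells and 0.929 and 2.70 RPKM in bulk cells (difference 4.004, SE 0.76, limma adjusted p = 0.535). In all 3 collagens each ALDH+ library was above each bulk library, and the ALDH+ level was higher in tumor 2 than in tumor 1. Microfibrillar type VI collagen was alike, with *Col6a1* at 4.89 and 35.7 RPKM in ALDH+ cells and 0.00695 and 0.388 RPKM in bulk cells and *Col6a2* at 8.32 and 29.5 RPKM in ALDH+ cells and 0.0148 and 0.0689 RPKM in bulk cells.

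Matricellular and adhesive proteins were higher from a bulk level that was not near 0. *Sparc*, a collagen-binding glycoprotein, was at 39.04 and 182 RPKM in ALDH+ cells and 9.97 and 12.7 RPKM in bulk cells (difference 2.80, SE 0.50, limma adjusted p = 0.478). *Tnc* (tenascin C), a matrix protein of wound and tumor stroma, was at 49.5 and 38.98 RPKM in ALDH+ cells, against 11.996 and 4.13 RPKM in bulk cells (difference 2.46, SE 0.47, limma adjusted p = 0.549). *Mgp* (matrix Gla protein), an inhibitor of calcification, was at 52.2 and 18.4 RPKM in ALDH+ cells and 9.59 and 1.72 RPKM in bulk cells (difference 2.58, SE 0.52, limma adjusted p = 0.676). *Fn1* (fibronectin) was at 24.6 and 30.1 RPKM in ALDH+ cells and 9.68 and 3.64 RPKM in bulk cells. The exception was *Thbs1* (thrombospondin 1), the most abundant member of the list, which was lower in both tumors. It was at 1072 and 546 RPKM in ALDH+ cells and 1534 and 740.1 RPKM in bulk cells. The 25 members of the interstitial matrix list summed to 1313 and 1441 RPKM in ALDH+ cells, against 1591 and 816.5 RPKM in bulk cells. That sum was thus lower in ALDH+ cells in tumor 1 and higher in tumor 2.

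Enzymes that cut or build matrix were partly included, with 6 of 22 tested members 2-fold higher in both tumors, against 1.81% of all tested genes. None was 2-fold lower, and the median was 0.60. *Mmp2*, gelatinase A, was at 3.53 and 22.4 RPKM in ALDH+ cells and 0.00908 and 0.981 RPKM in bulk cells. *Mmp13*, a collagenase, was at 8.28 and 13.1 RPKM in ALDH+ cells and 0.0206 and 2.63 RPKM in bulk cells. *Pcolce*, which enhances procollagen processing, was at 4.37 and 9.14 RPKM in ALDH+ cells and had no reads and 0.1002 RPKM in bulk cells. Of the 22, 5 reached 1 RPKM in ALDH+ libraries alone, so they had to be higher and give no support. Basement membrane genes gave 4 of 14 tested members 2-fold higher, against the same 1.81%, and a median of 0.55. Among the 4, *Nid1* (nidogen) was at 5.995 and 6.32 RPKM in ALDH+ cells and 1.72 and 0.366 RPKM in bulk cells. *Col4a2* was at 8.68 and 7.10 RPKM in ALDH+ cells and 1.76 and 2.14 RPKM in bulk cells. The laminins *Lama4*, *Lamb2* and *Lamc1* differed in direction between the tumors.

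**Figure D3:**
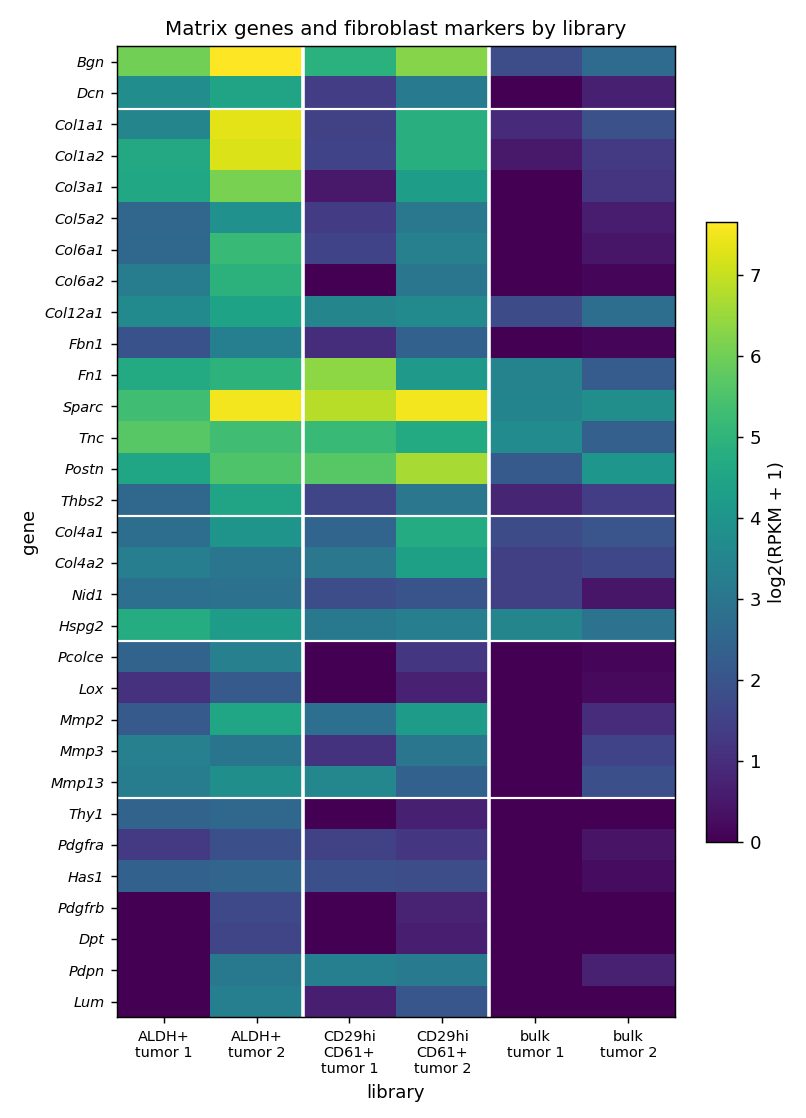
Levels of 31 genes in log2(RPKM + 1) as a color scale in the 6 libraries, ALDH+ left, CD29hi CD61+ in the middle and bulk right. White lines separate proteoglycans, interstitial matrix, basement membrane, matrix enzymes and, at the foot, fibroblast markers with *Lum*. The rows were selected, and *Thbs1* and *Omd*, lower in ALDH+ cells of both tumors, are left out. Both bulk columns are dark for most rows, and *Thy1* is dark in bulk cells, with no reads, and at 4.41 and 4.93 RPKM in ALDH+ cells.

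Markers of fibroblasts, cells that make most interstitial collagen in tumors, were read beside the matrix genes, and 13 of 19 were too low to be tested. *Thy1*, a surface marker of fibroblasts and some other cells, was at 4.41 and 4.93 RPKM in ALDH+ cells and had no reads in either bulk library, at least 92.4-fold and 55.5-fold higher (difference 2.50, SE 0.64, limma adjusted p = 0.934). *Pdgfra*, the PDGF receptor of fibroblasts, was at 1.44 and 2.67 RPKM in ALDH+ cells and had no reads and 0.313 RPKM in bulk cells. *Has1*, a hyaluronan synthase, was at 4.22 and 4.64 RPKM in ALDH+ cells and had no reads and 0.197 RPKM in bulk cells. Of 19 marker genes in the table, 6 were tested and 3 were 2-fold higher in both tumors, all 3 of them passing 1 RPKM in ALDH+ libraries alone, so that they had to be higher and give no support. The defining markers *Pdgfrb* and *Dpt* had reads in ALDH+ cells of tumor 2 only, at 2.20 and 2.05 RPKM, and none in ALDH+ cells of tumor 1 or in bulk cells. Summed over the 19 genes, the list reached 76.6 and 110.7 RPKM in ALDH+ cells and 56.1 and 33.9 RPKM in bulk cells and *Gsn* (gelsolin), an actin-severing protein that epithelial cells also make, gave 60.8 and 43.8 RPKM of this in ALDH+ cells and 51.5 and 28.8 RPKM in bulk cells. The part of fibroblasts in the matrix result was not tested, and in sorted bulk RNA more cells of a type cannot be told apart from more RNA per cell.

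The defining pericyte and endothelial markers were under 1 RPKM in the ALDH+ libraries, while other pericyte genes and some macrophage markers were not. The pericyte marker *Rgs5* had no reads in any of the 4 libraries, and *Cspg4* was under 1 RPKM in all of them. Summed over the 7 pericyte and smooth muscle genes in the table, levels were 23.7 and 40.04 RPKM in ALDH+ cells and 17.2 and 41.0 RPKM in bulk cells. The endothelial markers *Pecam1*, *Cdh5* and *Kdr* had no reads in ALDH+ cells of tumor 1 and at most 0.772 RPKM in ALDH+ cells of tumor 2, against no reads and at most 0.516 RPKM in bulk cells. The 7 endothelial genes in the table summed to 3.24 and 3.88 RPKM in ALDH+ cells and 2.92 and 2.84 RPKM in bulk cells. Of 17 macrophage genes in the table, *Cd68* and *Lyz2* were tested. *Cd68*, a lysosomal protein of macrophages that other cells can express, was at 7.28 and 12.04 RPKM in ALDH+ cells, with no reads and 8.04 RPKM in bulk cells. *Csf1r* was at 2.11 and 0.745 RPKM in ALDH+ cells and had no reads and 0.186 RPKM in bulk cells, and *C1qa* had no reads and 0.728 RPKM in ALDH+ cells and no reads and 0.143 RPKM in bulk cells. *S100a8*, which neutrophils and also inflamed epithelium make, was at 104 and 38.6 RPKM in ALDH+ cells and 7.12 and 119 RPKM in bulk cells, with the tumors opposed. No lymphocyte gene of 3 in the table was tested, and *Cd3e* had no reads in ALDH+ cells. Summed over the macrophage list, levels were 16.9 and 21.9 RPKM in ALDH+ cells and 3.90 and 29.3 RPKM in bulk cells, higher in tumor 1 and lower in tumor 2.

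Luminal identity was strong in both populations. *Epcam*, an epithelial adhesion molecule, was at 2349.7 and 2027 RPKM in ALDH+ cells and 1220.4 and 1835 RPKM in bulk cells. The luminal keratin gene *Krt18* was at 7735 and 3793 RPKM in ALDH+ cells and 6811 and 4356 RPKM in bulk cells. *Krt19* was at 1926 and 584 RPKM in ALDH+ cells and 983 and 316 RPKM in bulk cells, higher in both tumors. *Cldn4*, a tight junction claudin, ran lower at 776 and 1497 RPKM in ALDH+ cells, against 1948 and 2140.0 RPKM in bulk cells. *Prom1*, which encodes the CD133 surface protein, was also lower at 3.74 and 13.7 RPKM in ALDH+ cells and 16.1 and 23.1 RPKM in bulk cells. *Ly6a*, which encodes the stem cell antigen Sca-1, was the single member of 20 tested luminal genes that was 2-fold higher in both tumors, at 82.5 and 24.9 RPKM in ALDH+ cells and 18.6 and 9.11 RPKM in bulk cells. The list had a median of 0.04, with 8 genes higher and 5 lower in both tumors, against 25.5% and 23.5% of all tested genes.

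Basal genes did not separate the populations, with a median of 0.08 over 19 tested genes and none 2-fold in both tumors. *Krt14*, a basal keratin gene that luminal progenitors and tumor cells can also express, was at 471 and 339 RPKM in ALDH+ cells and 224 and 245 RPKM in bulk cells. *Krt5*, its basal partner, was low at 4.67 and 3.52 RPKM in ALDH+ cells and 3.23 and 8.87 RPKM in bulk cells, higher in tumor 1 and lower in tumor 2. The myoepithelial gene *Acta2* was at 0.965 and 4.74 RPKM in ALDH+ cells and 1.90 and 2.96 RPKM in bulk cells. Among mesenchymal transition genes, *Vim* (vimentin) was at 24.9 and 55.7 RPKM in ALDH+ cells and 10.9 and 15.4 RPKM in bulk cells, and *Snai1*, a repressor of E-cadherin, at 6.28 and 8.21 RPKM in ALDH+ cells and 3.43 and 2.95 RPKM in bulk cells. E-cadherin itself, *Cdh1*, was at 359 and 393 RPKM in ALDH+ cells and 399 and 421 RPKM in bulk cells. *Vim* was the only one of 8 tested transition genes that was 2-fold higher in both tumors, and it is also a fibroblast gene.

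Of 19 tested genes known from stem and progenitor cells, 6 were higher and 5 lower in both tumors, against 25.5% and 23.5% of all tested genes, and the median was 0.13. *Id1*, a helix-loop-helix inhibitor of differentiation, was at 7.97 and 11.5 RPKM in ALDH+ cells, with no reads and 4.29 RPKM in bulk cells, and was the only one of them 2-fold higher in both tumors. *Procr*, a marker of basal mammary stem cells, was at 5.70 and 6.63 RPKM in ALDH+ cells, against 13.4 and 13.3 RPKM in bulk cells. *Cd44*, the hyaluronan receptor, was at 166 and 142 RPKM in ALDH+ cells and 139.9 and 141 RPKM in bulk cells. The integrins of the other BCSC gate had the tumors opposed, with *Itgb3* (CD61) at 15.8 and 9.42 RPKM in ALDH+ cells and 17.6 and 9.29 RPKM in bulk cells and *Itgb1* (CD29) at 221 and 176 RPKM in ALDH+ cells and 182 and 251 RPKM in bulk cells. Of 11 tested Notch pathway genes, 2 were higher and 3 lower in both tumors, against the same 25.5% and 23.5%. The target *Hey1* was at 13.2 and 6.83 RPKM in ALDH+ cells and 1.37 and 3.54 RPKM in bulk cells, while the target *Hes1* was at 62.4 and 103 RPKM in ALDH+ cells and 117 and 126 RPKM in bulk cells.

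ErbB receptors and ligands, which carry growth signals in many breast cancers, had the lowest median among the lists with at least 5 tested genes, -0.59. That median was -1.55 in tumor 1 and -0.02 in tumor 2. Of 11 tested genes, 5 were lower in both tumors and none was higher in both, against 23.5% and 25.5% of all tested genes, and none was 2-fold in both. *Tgfa*, a ligand of the EGF receptor, was at 2.45 and 5.97 RPKM in ALDH+ cells, against 12.1 and 9.17 RPKM in bulk cells. *Ereg* (epiregulin) had no reads and 2.82 RPKM in ALDH+ cells, against 2.66 and 5.46 RPKM in bulk cells. *Egfr* was at 20.95 and 34.3 RPKM in ALDH+ cells and 44.2 and 39.8 RPKM in bulk cells. In the activin and IGF list, *Inhba*, the activin A subunit, was at 37.95 and 21.6 RPKM in ALDH+ cells and 14.8 and 4.20 RPKM in bulk cells, and *Fstl1*, a secreted glycoprotein of mesenchymal cells, at 3.24 and 16.7 RPKM in ALDH+ cells and no reads and 1.51 RPKM in bulk cells. These were the 2 of 13 that were 2-fold higher in both tumors.

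Of 28 tested interferon-induced and MHC class I genes, 15 were higher and 1 lower in both tumors, against 25.5% and 23.5% of all tested genes, with a median of 0.56, and only *Irf7* was 2-fold higher in both. *Irf7*, the regulator of type I interferon genes, was at 46.1 and 11.5 RPKM in ALDH+ cells and 11.99 and 4.80 RPKM in bulk cells. *Psmb8*, an immunoproteasome subunit, was at 68.4 and 28.8 RPKM in ALDH+ cells and 21.7 and 15.1 RPKM in bulk cells. *Oas1a*, an antiviral enzyme, was at 15.6 and 8.18 RPKM in ALDH+ cells and 8.34 and 2.29 RPKM in bulk cells. *Rsad2* (viperin) differed more between the tumors than between the populations, at 136 and 5.60 RPKM in ALDH+ cells and 93.2 and 7.67 RPKM in bulk cells. Genes of the NF-kB pathway gave a median of 0.06 over 25 tested members, with -0.40 in tumor 1 and 0.34 in tumor 2. The inhibitor *Tnip1* was the only one 2-fold higher in both tumors, at 12.7 and 5.99 RPKM in ALDH+ cells and 3.30 and 2.39 RPKM in bulk cells. *Cd14*, a co-receptor for bacterial lipopolysaccharide, was at 523 and 401 RPKM in ALDH+ cells and 302 and 196 RPKM in bulk cells, whereas its partner *Tlr4* was lower, at 0.0109 and 2.98 RPKM in ALDH+ cells and 6.22 and 5.84 RPKM in bulk cells. *Tlr2*, a receptor for bacterial lipoproteins, was at 28.4 and 29.6 RPKM in ALDH+ cells and 56.1 and 42.9 RPKM in bulk cells. Subunit *Rela* (p65) was at 49.2 and 75.7 RPKM in ALDH+ cells and 59.8 and 59.7 RPKM in bulk cells, with the tumors opposed.

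Energy metabolism and ribosomal genes gave no 2-fold difference in both tumors outside the hypoxia list. Of 18 tested glycolysis genes, 7 were higher and none lower in both tumors, against 25.5% and 23.5% of all tested genes, and none was 2-fold. The median was 0.15, but the tumors were opposed, with medians of -0.27 in tumor 1 and 0.59 in tumor 2. *Gapdh* was at 637 and 595 RPKM in ALDH+ cells and 417 and 352 RPKM in bulk cells, and *Eno1* at 307 and 373 RPKM in ALDH+ cells and 192 and 246 RPKM in bulk cells. Of 25 respiratory chain genes, 7 were higher and 2 lower in both tumors, with a median of 0.24, and the share higher was near that of all tested genes. *Sdhb*, a succinate dehydrogenase subunit, was at 36.02 and 67.2 RPKM in ALDH+ cells and 23.8 and 41.97 RPKM in bulk cells. In the hypoxia list, *Angptl4*, a secreted regulator of lipoprotein lipase, was at 26.4 and 12.3 RPKM in ALDH+ cells and 4.14 and 2.49 RPKM in bulk cells, while *Hif1a* was at 29.1 and 31.8 RPKM in ALDH+ cells and 41.9 and 55.5 RPKM in bulk cells. Cytosolic ribosomal protein genes were higher in both tumors in 15 of 21 cases and lower in 1, against 25.5% and 23.5% of all tested genes. Their median was 0.39 and the largest difference 0.87.

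Detoxification genes outside the aldehyde dehydrogenases showed no common direction, since of 25 tested glutathione and Nrf2 genes 8 were higher and 8 lower in both tumors and the median was -0.01. Of all tested genes, 25.5% were higher and 23.5% lower in both tumors. *Hmox1*, the heme oxygenase induced by Nrf2, was at 96.1 and 177 RPKM in ALDH+ cells, against 204 and 350.3 RPKM in bulk cells (difference -1.03, SE 0.30, limma adjusted p = 0.934), without overlap between the groups. *Gclm*, a subunit of the enzyme that limits glutathione synthesis, was at 20.6 and 30.2 RPKM in ALDH+ cells and 64.6 and 53.7 RPKM in bulk cells. *Gsto1*, a glutathione transferase, was at 43.8 and 44.1 RPKM in ALDH+ cells and 23.7 and 28.03 RPKM in bulk cells. The drug efflux pump *Abcg2*, often used to find stem-like cells by dye exclusion, was at 9.82 and 7.80 RPKM in ALDH+ cells and 11.3 and 12.3 RPKM in bulk cells.

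Of 20 tested mitosis genes, 10 were higher and 1 lower in both tumors, against 25.5% and 23.5% of all tested genes, 2 were 2-fold higher and the median was 0.46. *Ccnb1* (cyclin B1) was at 5.36 and 9.25 RPKM in ALDH+ cells and 1.90 and 2.15 RPKM in bulk cells. *Cdc20*, an activator of the anaphase-promoting complex, was at 5.68 and 10.9 RPKM in ALDH+ cells and 0.0155 and 4.93 RPKM in bulk cells. Of 20 tested genes of DNA replication, 4 were higher and 4 lower in both tumors and 1 was 2-fold higher. The median was -0.14, with -0.61 in tumor 1 and 0.14 in tumor 2. The difference between the mitosis and replication lists was not tested. *Rrm1*, the large subunit of ribonucleotide reductase, was at 0.0105 and 10.2 RPKM in ALDH+ cells and 7.10 and 16.9 RPKM in bulk cells. *Mki67* was at 3.21 and 8.66 RPKM in ALDH+ cells and 8.74 and 6.67 RPKM in bulk cells, with the tumors opposed.

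**Figure D4:**
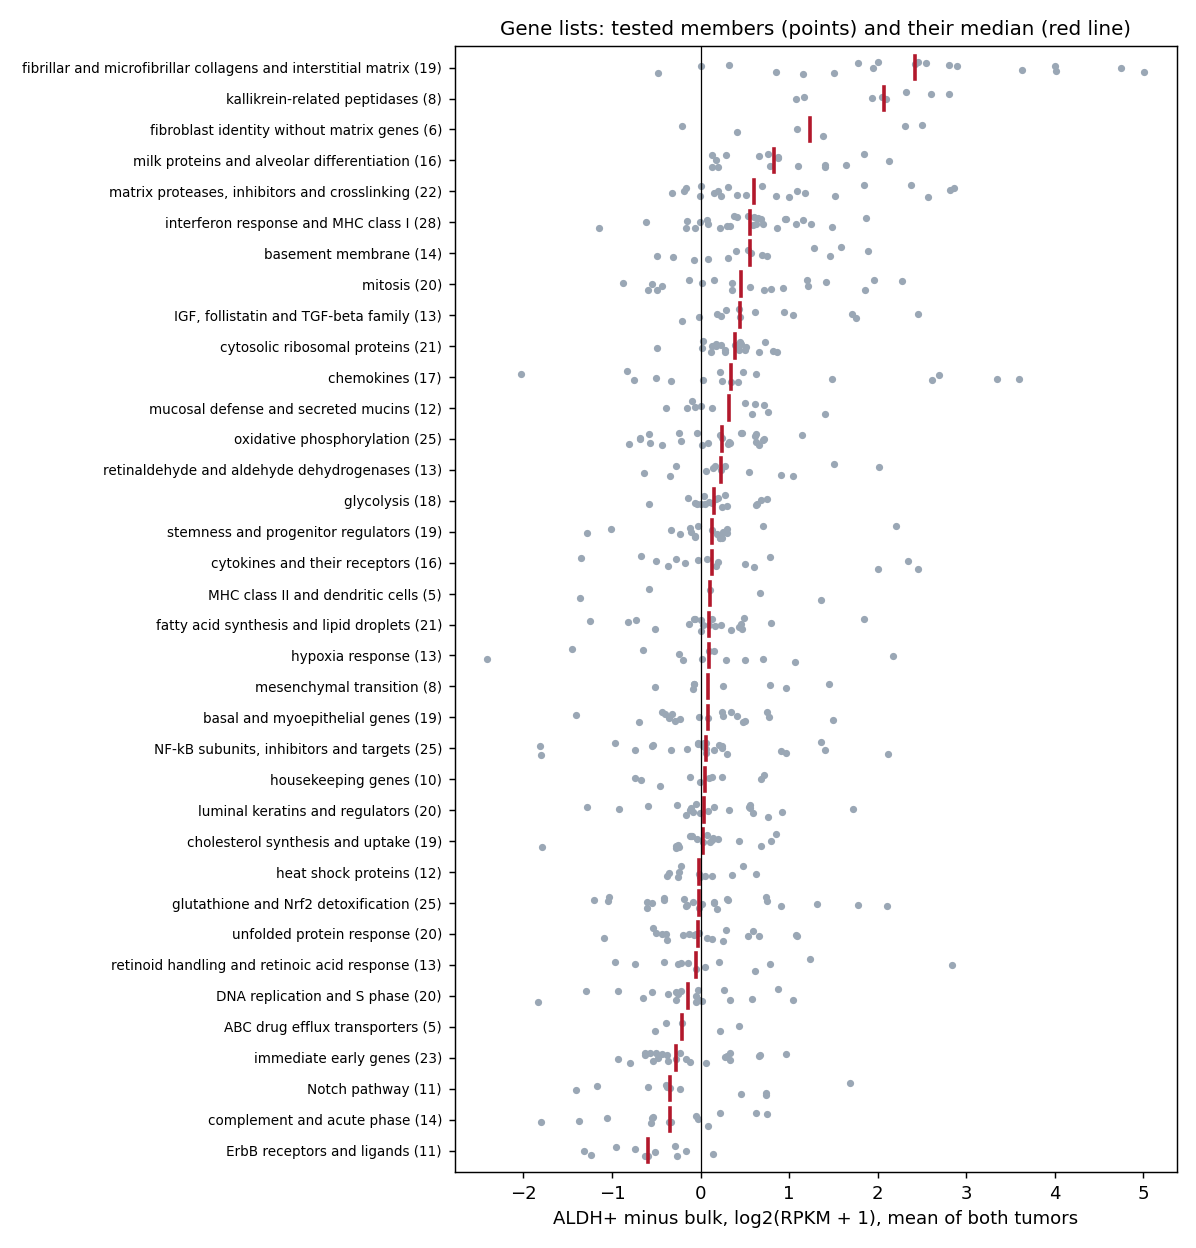
Gene lists with at least 5 tested members, in order of their median, with the number tested in brackets. Each point is a gene's difference in log2(RPKM + 1), ALDH+ minus bulk, and the red line is the list's median. Interstitial matrix is at the top with a median of 2.43 and ErbB genes are at the bottom with -0.59, while most lists lie near 0.

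No protein-coding gene that was lower in ALDH+ cells passed the adjusted p. Of the 76 genes that were 2-fold lower in both tumors, 14 were microRNA or other small RNA genes, out of 154 such genes tested, and 30 reached 1 RPKM in no ALDH+ library. The 15 ranked lowest outside the small RNAs were led by *Gtpbp8*, a GTP-binding protein gene, which had no reads and 1.29 RPKM in ALDH+ cells, against 4.52 and 7.60 RPKM in bulk cells (difference -2.19, SE 0.69, limma adjusted p = 0.934). *Mterf3*, a regulator of mitochondrial transcription, had no reads and 3.26 RPKM in ALDH+ cells, against 14.4 and 13.3 RPKM in bulk cells. *Nsun3*, a methyltransferase of mitochondrial tRNA, had no reads and 0.391 RPKM in ALDH+ cells, against 6.21 and 2.72 RPKM in bulk cells. *Lactb2*, *Zfp160*, *Zfp566*, *Kctd21*, *Arhgdig* and *Trim59* likewise had no reads in ALDH+ cells of tumor 1. Only *Tmem97*, the sigma-2 receptor gene, and *Ankrd49* had more than 1 read there among the 15. *Tmem97* was at 3.75 and 0.197 RPKM in ALDH+ cells and 11.6 and 3.70 RPKM in bulk cells, and *Ankrd49* was at 9.23 and 6.28 RPKM in ALDH+ cells and 39.3 and 16.9 RPKM in bulk cells. The last of the 15 had a smaller tumor difference of -1.18, and the next gene below the rank also had -1.18. At the upper end the smallest of the 15 was 2.33 and the next 2.31.

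The 2 microRNA genes that fell, *Mir1982* just beyond the threshold and the neighbor *Mir19a* are shown by their mature sequences, because the reads come from poly(A) RNA and count the hairpin or the transcript that holds it, not the mature microRNA. Capitals mark the seed, bases 2 to 8, which pairs with targets (RefSeq, GRCm38.p6).
mmu-let-7d-5p: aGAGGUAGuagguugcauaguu
mmu-let-7d-3p: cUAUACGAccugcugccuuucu
mmu-miR-19b-3p: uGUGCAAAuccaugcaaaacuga
mmu-miR-19a-3p: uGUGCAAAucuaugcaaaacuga
mmu-miR-1982-5p: uUGGGAGGguccuggggagg
mmu-miR-1982-3p: uCUCACCCuauguucucccacag
The miR-19a and miR-19b arms shared the seed GUGCAAA, and no other pair among these 6 shared one.

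*Mirlet7d*, whose family restrains growth and stem cell genes, had no reads in either ALDH+ library, against 455 and 136 reads in bulk cells, or 122 and 67.9 RPKM. That was at least 99.6-fold and 44.4-fold lower (difference -6.52, SE 0.60, limma adjusted p = 0.0348). *Mir19b-1*, a member of an oncogenic microRNA cluster carried by the transcript *Mir17hg*, had no reads in ALDH+ cells, against 232 and 115 reads in bulk cells, or 73.6 and 67.96 RPKM. It was at least 50.8-fold and 37.5-fold lower (difference -6.16, SE 0.61, limma adjusted p = 0.0349). Its neighbor *Mir19a* had no reads and 17.3 RPKM in ALDH+ cells, against 59.95 and 25.7 RPKM in bulk cells. *Mir17hg* itself was at 3.40 and 5.70 RPKM in ALDH+ cells and 10.1 and 11.5 RPKM in bulk cells, lower in both tumors by less than *Mir19b-1*. *Mir1982* had no reads in ALDH+ cells, against 574 and 59 reads in bulk cells, and stood just beyond the threshold (difference -6.57, SE 0.72, limma adjusted p = 0.0524). *Mir1982*, *Mir19a* and *Mir17hg* were added after their values were seen. Of the 4 libraries, *Mirlet7d*, *Mir19b-1* and *Mir1982* reached 1 RPKM in the bulk libraries alone, so they had to be lower and give no support. In CD29hi CD61+ cells, *Mir19b-1* was at 0 and 26.6 RPKM. With limma voom the adjusted p of *Mirlet7d* and *Mir19b-1* was 0.826, neither passed without either bulk library, and genes this short turn few reads into a high RPKM.

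ALDH+ cells were also set against the CD29hi CD61+ BCSCs of the same tumors, with the same genes and model, and 6 genes (0.051%) passed an adjusted p under 0.05. None of the 6 passed in any of 6 alternative fits added after the data were seen, so these are listed as values. *Csn2* was at 823 and 191 RPKM in ALDH+ cells and 79.3 and 7.66 RPKM in CD29hi CD61+ cells (difference 3.91, SE 0.29, limma adjusted p = 0.0112). *Csn1s1* was at 518 and 117 RPKM in ALDH+ cells and 53.9 and 20.9 RPKM in CD29hi CD61+ cells (limma adjusted p = 0.0268). *Aldh1a3* was at 693 and 182 RPKM in ALDH+ cells and 60.5 and 40.6 RPKM in CD29hi CD61+ cells (difference 2.82, SE 0.32, limma adjusted p = 0.0448). *Klk10* was at 864 and 94.9 RPKM in ALDH+ cells and 51.2 and 15.6 RPKM in CD29hi CD61+ cells (limma adjusted p = 0.0392). Both contrasts share the ALDH+ libraries, so the higher level in them counts in each.

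In the other direction *Krt5*, the basal keratin, was at 4.67 and 3.52 RPKM in ALDH+ cells, against 128 and 48.8 RPKM in CD29hi CD61+ cells (difference -3.98, SE 0.38, limma adjusted p = 0.0281). *Mir1982* had no reads in ALDH+ cells and was at 31.2 and 50.7 RPKM in CD29hi CD61+ cells (limma adjusted p = 0.0448). *Bgn* was at 64.6 and 201 RPKM in ALDH+ cells and 28.5 and 75.9 RPKM in CD29hi CD61+ cells and did not pass (difference 1.27, SE 0.23, limma adjusted p = 0.309). *Sparc*, at 39.04 and 182 RPKM in ALDH+ cells and 113 and 182 RPKM in CD29hi CD61+ cells, did not pass either (limma adjusted p = 0.848). Among the fibroblast markers, *Thy1* was at 4.41 and 4.93 RPKM in ALDH+ cells and had no reads and 0.587 RPKM in CD29hi CD61+ cells. *Ccl2* was at 97.6 and 30.9 RPKM in ALDH+ cells and 11.7 and 13.5 RPKM in CD29hi CD61+ cells (limma adjusted p = 0.494).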

How the data were processed

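Poly(A) RNA of 3 sorted populations from 2 MMTV-PyMT tumors was sequenced (6 libraries). The sort by Aldefluor activity is from the study's methods. The authors aligned reads with the standard Illumina pipeline and deposited 1 table of RPKM per library. The aligner, genome build and annotation are not given in the sources used here. The deposited table also holds the authors' normalized mean signal for CD29hi CD61+ and bulk cells, used only to recover gene length, and their own comparison of those populations (fold change, p-values), which was not used. RPKM and length gave whole reads within 0.01 for all genes but 1. Of the symbols, 20 were restored from RefSeq by gene ID.

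Genes at 1 RPKM or more in at least 2 of the 4 libraries were tested on log2(RPKM + 1) with limma 3.58.1 (R 4.3.3, intensity trend, tumor as a block), Benjamini-Hochberg adjusted over all tested genes. The block rests on populations sorted from the same tumor. The deviations of ALDH+ and bulk libraries of a tumor from their group means correlated at 0.225 across genes, which are not independent. With 2 pairs, 1 residual degree of freedom per gene was left, to which limma added the spread shared over genes. An SE is therefore not the spread between the tumors alone. In *Dcn* the tumor differences were 3.76 and 3.79, while the SE was 0.69. Fold limits against empty libraries take 3 reads in that library and cover counting error only. Tables and figures used Python 3.11.15, numpy 2.4.6, pandas 2.3.3 and matplotlib 3.10.9. The procedure was tested on simulated data.

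Genes were named by rule: those passing the adjusted p, the 15 highest and 15 lowest by the smaller tumor difference (small RNA and predicted genes left out), up to 3 highest and 2 lowest members of each of 44 lists, defining markers of other cell types, and genes opposed between tumors. The lists held 794 genes, of which 700 were in the table and 571 tested. The members and lists were chosen with earlier results of these data known. The kallikrein list and some further genes of the lists, added to describe a pathway or because of their values, lie outside the rule and were chosen after values were seen. Other blocks, libraries, pseudocounts, filters, scalings and limma voom on recovered reads were tried as alternatives. Marker genes such as *Ptprc*, *Adgre1* and *Adipoq*, were not analysed here, and 1 retinoid gene is not reported here.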

Additional observations from a re-analysis of the deposited data

Results flagged for a closer look

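Of the 571 listed genes that were tested, 10 differed at least 2-fold upward in one tumor and at least 2-fold downward in the other. The difference between the tumors was not tested, since each holds 1 library per population. Over all 11757 tested genes 207 did so, 71 higher in tumor 1 and 136 higher in tumor 2. The share among the listed genes was close to this, so the 10 are listed as values only. The values that follow are the difference in tumor 1 minus that in tumor 2.

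*S100a8*, a calcium-binding protein gene of neutrophils, gave 5.30, with 104 and 38.6 RPKM in ALDH+ cells and 7.12 and 119 RPKM in bulk cells. *Fst*, the activin inhibitor follistatin, gave 2.30, with 11.9 and 2.96 RPKM in ALDH+ cells and 4.87 and 7.87 RPKM in bulk cells. These were the genes that stood higher in ALDH+ cells of tumor 1.

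The remaining 8 stood higher in ALDH+ cells of tumor 2. *Uqcrq*, a small complex III subunit, gave -6.12, with no reads and 56.3 RPKM in ALDH+ cells and 13.6 and 11.02 RPKM in bulk cells. *Hspa1a*, the inducible Hsp70, gave -2.63, with 129.7 and 1438 RPKM in ALDH+ cells and 329 and 586 RPKM in bulk cells. *Srebf1*, the regulator of fatty acid synthesis, gave -2.81, with 20.2 and 91.3 RPKM in ALDH+ cells and 57.6 and 35.3 RPKM in bulk cells. *Serpina3n*, an acute phase protease inhibitor, gave -3.06, with 9.96 and 20.1 RPKM in ALDH+ cells and 39.6 and 8.41 RPKM in bulk cells.

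Among the less abundant genes, *Nrg4*, an ErbB4 ligand, gave -3.09, with 0.0436 and 7.68 RPKM in ALDH+ cells and 3.37 and 3.25 RPKM in bulk cells. *Tgfbi*, a matrix protein induced by TGF-beta, gave -3.11, with no reads and 3.75 RPKM in ALDH+ cells and 2.38 and 0.864 RPKM in bulk cells. *Ly6c1*, a surface antigen of endothelial cells and monocytes, gave -2.91, with no reads and 2.12 RPKM in ALDH+ cells and 2.17 and 0.318 RPKM in bulk cells. *Zeb1*, a repressor of epithelial genes, gave -2.37, with no reads and 1.19 RPKM in ALDH+ cells and 1.39 and 0.0177 RPKM in bulk cells.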

How the results depend on the processing

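The number of genes past the adjusted p, 3 in the comparison of ALDH+ with bulk cells, depended on the settings. It was 0 with pseudocounts of 0.1 and 0.5 RPKM, with median scaling and with limma voom, where the smallest adjusted p was 0.826 and 215 genes were higher and 122 lower at an unadjusted p under 0.05. It was 4 with upper quartile scaling or no filter, and 19 (14 higher, 5 lower) for genes averaging at least 5 RPKM, where all 3 genes were among them. With 1 library left out it ranged from 0 to 79. The fits with 1 library left out had no block. In the paired design, the fit with no replicate block called 2 genes, the block with all 6 libraries 3, and all 6 libraries without it 0. Genes 2-fold higher in both tumors, 213, became 332 with a pseudocount of 0.1 RPKM and 122 at a mean of at least 5 RPKM, and the 76 lower genes became 153 and 34. In 1 tumor alone, an alternative added after seeing the data, 630 to 1973 genes were higher and 272 to 2103 lower. The 6 genes called between ALDH+ and CD29hi CD61+ cells became 0 in each of 6 alternatives added after seeing the data, among them the fit with no replicate block and the block with all 6 libraries, and it was 0 again with any 1 library left out. For 25 genes with a fitted difference, 275 of 323 values kept their sign and side of the threshold, 25 came to pass it, 23 no longer passed and none changed sign. Of 35 list medians, none moved with median scaling and 6 moved with a pseudocount of 0.1 RPKM. Where the cause of a lost call is not set by fewer genes or samples, the cause was not tested. In tumor 1, 11.95% of tested genes in ALDH+ cells and 8.69% in bulk cells had no reads, against 0.434% and 0.17% in tumor 2, although the tumor 1 libraries held more reads, and the cause was not tested.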

Other observations

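A few genes outside the roles above also stood apart between ALDH+ and bulk cells in both tumors, and all were chosen after their values were seen except *Thrsp*, a list member named by rule. *Crip1*, a small LIM domain protein gene, was at 336 and 114 RPKM in ALDH+ cells, against 33.5 and 34.7 RPKM in bulk cells. *Thrsp*, a regulator of fatty acid synthesis in the lactating gland and liver, was at 4.25 and 33.6 RPKM in ALDH+ cells and 0.0266 and 12.8 RPKM in bulk cells. On the lower side, *Ccng2*, a cyclin gene linked to growth arrest, was at 17.1 and 16.9 RPKM in ALDH+ cells and 38.1 and 37.8 RPKM in bulk cells. *Snhg1*, a host transcript of small nucleolar RNAs, was at 56.6 and 63.1 RPKM in ALDH+ cells and 122 and 144 RPKM in bulk cells. The populations overlapped in *Thrsp* and not in the other 3 genes.

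The microRNA gene *Mir22* and its host transcript *Mir22hg*, like *Mir19b-1* and *Mir17hg*, differed by unequal amounts. *Mir22* had no reads and 4.42 RPKM in ALDH+ cells, against 47.4 and 49.2 RPKM in bulk cells, while *Mir22hg* was at 6.10 and 14.9 RPKM in ALDH+ cells and 17.8 and 19.9 RPKM in bulk cells. Genes that differed 2-fold in both tumors were shorter than the rest, with median lengths of 1627 bp for those higher in ALDH+ cells and 1488 bp for those lower, against 2911 bp for all tested genes.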
